A study of Mus musculus with 6 samples.

Results

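Immunoglobulin variable segments were counted in RNA from sorted regulatory T cells (Tregs) of mice with and without the cytokine gene Il33. The members were chosen by their symbols (Ighv, Igkv or Iglv) and by their summed raw counts, with at least 10 reads over the 6 libraries. This gave 164 of the 37187 genes in the count table: 82 of 108 heavy-chain segments (Ighv), 79 of 102 kappa segments (Igkv) and all 3 lambda segments (Iglv). All 164 were annotated as immunoglobulin variable genes. Of the 49 segments under the threshold, 15 had no read in any library. RNA had been sequenced in bulk from cells of tumour-draining lymph nodes that were sorted as CD4+CD25+GITR+ and labelled as Foxp3+ Tregs. Every mouse had received 300000 B16.F10 melanoma cells, a transplantable mouse tumour line, under the skin, and nodes were taken on day 14. The 3 WT libraries (replicates 1 to 3) came from C57BL6 mice and the 3 KO libraries (replicates 4 to 6) from il33-/- mice in a C57BL6 background. Neither the age and sex of the mice nor whether a library came from 1 animal or a pool is stated.

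An antibody pairs a heavy chain with a light chain, which is either kappa or lambda. In developing B cells, 1 variable segment of a locus is joined by RAG recombination to a joining segment (with a diversity segment between them in the heavy chain), and splicing brings this exon next to a constant region. The choice of segment differs from B cell to B cell, so the mix of segments in a sample is a coarse picture of the B cells or plasma cells in it. Tregs belong to the T lineage and rearrange T cell receptor segments instead. B cells are abundant in lymph nodes, where they form follicles beside the T cell zone.

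Heavy members lay on chromosome 12 between 113578504 and 116000461 of GRCm38, all on the minus strand. The kappa members lay on chromosome 6 between 67555497 and 70704177, with 31 on the plus and 48 on the minus strand, and the lambda members on chromosome 16 between 19085017 and 19260859. The segments are short, with a median exonic length of 356.5 bases for heavy, 363 for kappa and 381 for lambda members, and they resemble each other. The ends of the variable exons are printed, because this is where a segment meets its joining partner, for some of the segments that led the heavy or kappa class in a library or had the smallest p, and for Iglv3, the lambda segment least like the other lambda members. Each run is the last 60 bases of the GENCODE M21 transcript, 5′ to 3′ on the coding strand. Capitals mark the codon of the conserved cysteine that closes the third framework region.
Ighv1-26: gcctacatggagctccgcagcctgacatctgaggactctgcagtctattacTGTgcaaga
Ighv1-18: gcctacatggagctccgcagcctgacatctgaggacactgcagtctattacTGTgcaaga
Ighv14-4: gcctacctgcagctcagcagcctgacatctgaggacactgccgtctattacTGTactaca
Igkv10-96: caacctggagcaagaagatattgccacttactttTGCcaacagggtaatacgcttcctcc
Igkv12-44: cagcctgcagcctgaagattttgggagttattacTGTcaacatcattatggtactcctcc
Igkv1-110: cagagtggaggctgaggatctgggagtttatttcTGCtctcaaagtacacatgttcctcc
Igkv6-17: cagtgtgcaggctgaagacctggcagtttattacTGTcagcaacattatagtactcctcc
Igkv14-111: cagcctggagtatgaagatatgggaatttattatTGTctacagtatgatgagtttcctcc
Iglv3: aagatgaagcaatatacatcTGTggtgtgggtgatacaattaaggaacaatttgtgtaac
The codon was found by a search for TAT or TAC, a codon with A or T in its first and its middle place and C or T in its last, and then TGT or TGC, on the coding strand. This pattern stood in the last 60 bases of 161 of the 164 members and of 1.42% of 141079 transcripts of other genes. In the heavy chains shown it was followed by 6 bases and in the kappa chains by 23, the germline stretch of the third antigen-contacting loop. Ighv1-26 and Ighv1-18 differed at 7 of their last 250 bases.

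Iglv1 and Iglv2 were the closest lambda pair. The last 120 bases of each are shown with capitals at the bases that differ between them.
Iglv1: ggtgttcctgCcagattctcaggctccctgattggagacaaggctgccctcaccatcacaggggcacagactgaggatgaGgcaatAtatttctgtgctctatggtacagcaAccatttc
Iglv2: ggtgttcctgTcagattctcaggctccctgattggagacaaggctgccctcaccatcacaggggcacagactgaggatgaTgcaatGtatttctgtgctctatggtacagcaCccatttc
They differed at 4 of these 120 bases and were 97.2% identical over the last 250, aligned with gaps allowed. Over all members, the identity to the nearest annotated segment had a median of 94.8%. For 16 members it was 98% or more, Ighv1-71 was identical to Ighv1-62-2 over 250 bases, and for 21 members the nearest segment was not in the count table. The assignment of reads shared by such copies is not stated, so counts of single segments are uncertain to that extent, and class totals less so.

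Libraries held between 18071928 counts (WT replicate 3) and 21165063 counts (WT replicate 1). The Treg and T cell list (11 genes, among them Foxp3 and Cd3e) summed to 5153 to 5924 CPM (counts scaled to library size) in WT and 6109 to 6246 in KO, and no gene of it was at 0. Ctla4, an inhibitory receptor, was its 1 call among 11 tested, higher in KO (log2 fold change 0.54, edgeR adjusted p = 0.00117). The 93 tested T cell receptor variable segments showed no call in either direction, and all 131 in the table summed to 514.5 to 526.5 CPM in WT and 521 to 565.9 in KO. Of 9 myeloid and dendritic cell genes tested, Siglech passed as lower, and the list summed to 34.1 to 50.3 CPM in WT and 25.3 to 41.5 in KO. The deleted gene could not check the labels, since Il33 had 7, 0 and 9 reads in WT and 3, 8 and 2 in KO. Libraries were tested with edgeR's quasi-likelihood method over 17643 genes with a summed count of at least 10, a filter that every member passes, and calls are at a Benjamini-Hochberg adjusted p of 0.05. The labels do not say that replicates were separate animals, so p-values measure only the spread between these libraries.

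Variable segments of all 3 classes were less abundant in KO than in WT. In WT replicates 1, 2 and 3, 2425, 602 and 1485 reads fell on heavy members, and in KO replicates 4, 5 and 6 there were 388, 631 and 338. In CPM this was 115, 31.3 and 81.8 in WT and 18.5, 30.0 and 16.1 in KO. WT replicate 2 stood well below the other WT libraries and close to KO replicate 5, and the groups did not overlap. The means were 76.0 ± 42.1 CPM in WT and 21.6 ± 7.45 in KO (SD, n = 3 each), a log2 ratio of -1.82.

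Kappa members held the most reads, with 3631, 958 and 2404 in the WT libraries and 579, 862 and 480 in the KO libraries. Their summed CPM was 172, 49.8 and 132 in WT against 27.6, 41.1 and 22.9 in KO. The order of the libraries was the same as for the heavy chains, and the groups again did not overlap. The means were 118 ± 62.3 and 30.5 ± 9.42 CPM, a log2 ratio of -1.95. Lambda members had 687, 209 and 493 reads in WT and 136, 177 and 76 in KO, or 32.5, 10.9 and 27.1 against 6.47, 8.43 and 3.63 CPM. Their means were 23.5 ± 11.3 and 6.18 ± 2.41 CPM, a log2 ratio of -1.93. Over all 3 classes the WT mean was 3.74 times the KO mean.

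**Figure D1:**
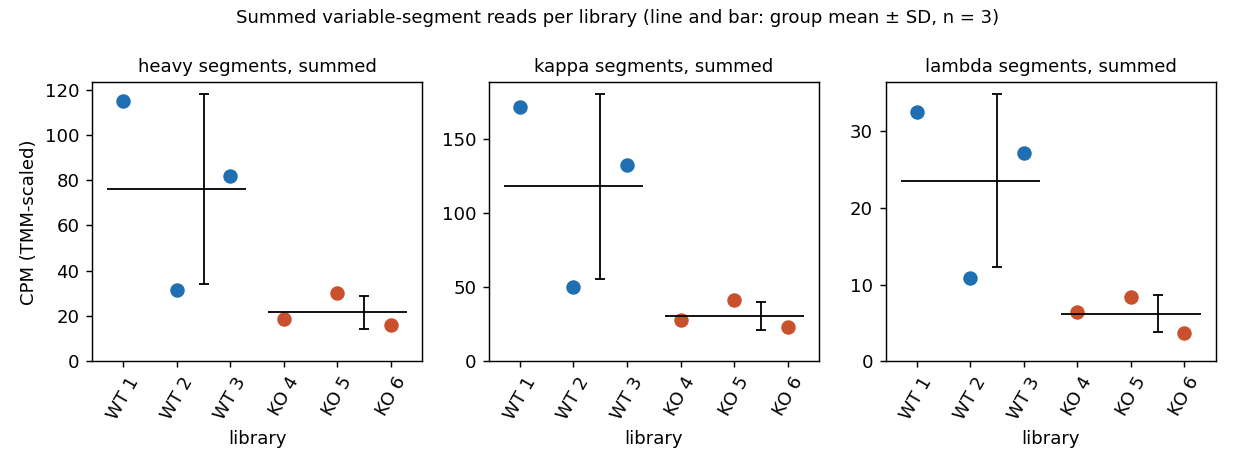
Summed CPM (vertical axes, each starting at 0) of heavy, kappa and lambda members in each library (points, WT in blue, KO in orange). Lines and bars are group means ± SD, n = 3. In each class WT replicates 1 and 3 are highest, WT replicate 2 is the lowest WT library and KO replicate 5 the highest KO library, as with 31.3 and 30.0 CPM for the heavy chains.

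In bulk RNA, fewer B cells and less segment RNA per cell cannot be told apart. All segment reads together were a small part of each library, from 0.00426% in KO replicate 6 to 0.0319% in WT replicate 1. The sums have no test, since the members were chosen with results known.

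The balance of the classes moved little while the totals moved. Heavy chains took 34.6% ± 1.16 of segment reads in WT and 36.9% ± 1.51 in KO, kappa 54.3% ± 0.519 and 52.6% ± 1.04, and lambda 11.1% ± 0.826 and 10.5% ± 1.92 (SD, n = 3 each). Kappa shares did not touch, at 53.8%, 54.2% and 54.9% in WT and 52.5%, 51.6% and 53.7% in KO, although WT replicate 1 and KO replicate 6 were close. Heavy shares overlapped, at 36.0%, 34.0% and 33.9% in WT and 35.2%, 37.8% and 37.8% in KO. Among light-chain reads, lambda made up 15.9%, 17.9% and 17.0% in WT and 19.02%, 17.0% and 13.7% in KO. The lowest of these, in KO replicate 6, had an exact binomial 95% interval from 10.9% to 16.8%, and the highest, in KO replicate 4, one from 16.2% to 22.1%, for counting error only. The kappa to lambda ratio was 5.29, 4.58 and 4.88 in WT and 4.26, 4.87 and 6.32 in KO, so the KO libraries held both the lowest and the highest value.

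B cell marker genes moved with the segments. All 20 genes of the B cell list were lower in KO in the fit and none passed, with a median log2 fold change of -1.95 and no marker at 0. Their summed level was 1294 to 2573 CPM in WT and 396.4 to 652.8 in KO. Cd79a, a signalling chain of the B cell receptor, had 205.7, 60.7 and 154.8 CPM in WT and 35.4, 46.3 and 29.1 in KO, the same order of libraries as the segments. Cd72, a B cell lectin on the same list, went against this order, with 10738 reads in WT replicate 2 and 866 to 1814 in the other 5 libraries. Without Cd72, a choice made after seeing the data, the remaining 19 markers summed to 2487, 735.1 and 1912 CPM in WT and 451.4, 609.7 and 355.1 in KO.

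Per 100 reads of those 19 markers there were 12.8, 12.5 and 12.6 segment reads in WT and 11.6, 13.04 and 12.02 in KO. The means were 12.7 ± 0.162 and 12.2 ± 0.731 (SD, n = 3 each), and the WT values lay inside the KO range. By class, the means were 4.38 and 4.52 for heavy, 6.87 and 6.43 for kappa, and 1.40 and 1.28 for lambda in WT and KO. As log2 ratios of KO to WT these were 0.04, -0.10 and -0.13, against -1.82, -1.95 and -1.93 for the CPM. With Cd72 kept in, WT replicate 2 alone fell to 7.11 segment reads per 100 marker reads, and the other libraries ranged from 10.6 to 12.4.

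**Figure D2:**
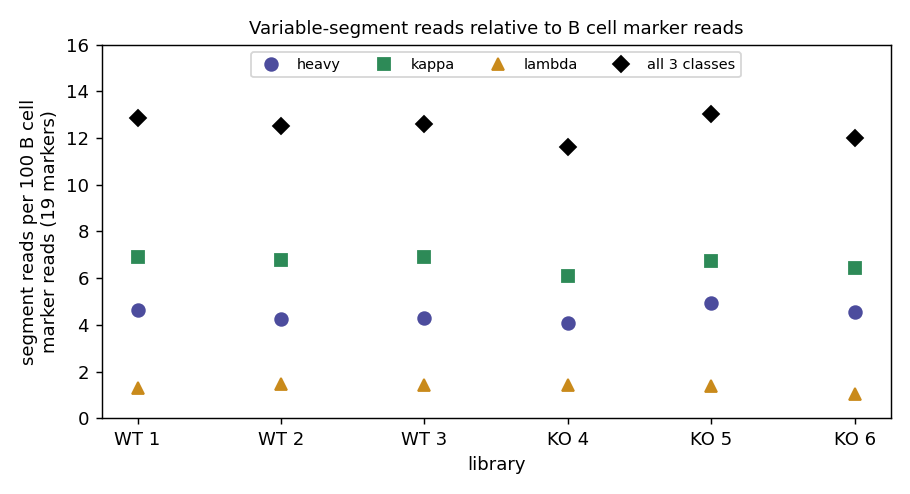
Segment reads per 100 reads of 19 B cell markers (vertical axis, from 0) in each library, for heavy, kappa and lambda members and for their sum. The sum stays between 11.6 and 13.04 in all 6 libraries, and WT and KO overlap.

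Light-chain constant regions followed their variable segments. Igkc, the only kappa constant region, had 289, 86.1 and 226.9 CPM in WT and 51.5, 71.1 and 45.5 in KO, a log2 fold change of -1.84 that did not pass (edgeR adjusted p = 0.188). There were 0.594, 0.579 and 0.583 kappa segment reads per Igkc read in WT and 0.535, 0.577 and 0.504 in KO. Iglc2, a lambda constant region, had 56.8, 13.7 and 39.7 CPM in WT and 7.998, 10.9 and 5.35 in KO.

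Ighm, the heavy-chain constant region of IgM, was abundant in every library. It had 1444, 1061 and 1296 CPM in WT and 922.6, 1117 and 1020 in KO, a log2 fold change of -0.31 that did not pass (edgeR adjusted p = 0.242). The groups overlapped. Heavy segment reads per 1000 Ighm reads were 79.5, 29.5 and 63.1 in WT and 20.02, 26.9 and 15.8 in KO. Of the 8 immunoglobulin constant genes tested, none passed in either direction. Their median log2 fold change was 0.12, and Ighe, the IgE constant region, had no read in any library.

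The switched isotypes had few reads, and single libraries carried much of them. Ighg1, an IgG constant region, had 309 reads in WT replicate 1 and 37 to 73 in the other 5. Ighg2c, the IgG2c constant region of C57BL/6 mice, had 231 reads in KO replicate 5 and 10 to 55 in the others. Ighg2b had 41, 13 and 36 reads in WT and 58, 91 and 136 in KO, with no overlap in CPM and an edgeR adjusted p of 0.0783. Igha, which encodes IgA, had 2, 4 and 1 reads in WT and 18, 15 and 4 in KO (edgeR adjusted p = 0.0959).

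Joining segments, the partners of the variable segments, had a lower kappa and a lower heavy sum in KO, with no overlap of the groups in either. Of 9 tested, 5 passed as lower in KO and 0 as higher: Ighj3, Igkj1, Igkj3, Igkj4 and Igkj5. Of all 17643 genes tested, 2.14% passed as lower and 2.88% as higher. The median log2 fold change of the 9 was -1.95, but the loci differed. The kappa joining segments ran from -2.72 to -1.95 and the heavy ones from -0.99 to -0.08. The kappa joining segments summed to 19.9, 6.24 and 13.5 CPM in WT and 3.86, 2.81 and 1.81 in KO. The heavy joining segments summed to 21.6, 16.3 and 17.3 CPM in WT and 14.1, 14.9 and 13.3 in KO. Ighj3 was the heavy one called, at 4.30 ± 0.826 CPM in WT and 2.18 ± 0.762 in KO (log2 fold change -0.99, SE 0.26, edgeR adjusted p = 0.0401). Ighj1 had 5.97, 4.06 and 6.06 CPM in WT and 5.57, 4.52 and 5.11 in KO, which overlapped.

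Genes of other B lineage states ranged from no reads to many. Mzb1, a chaperone of antibody-secreting and innate-like B cells, had 341, 128 and 225 reads in WT and 71, 103 and 40 in KO, in the same order of libraries as the segments, and did not pass (log2 fold change -1.79, edgeR adjusted p = 0.131). Tnfrsf17, a receptor of plasma cells, had 3 reads in all libraries together, and the B cell precursor genes Rag2 and Vpreb2 and the germinal centre gene Mef2b had none. The precursor list of 6 genes had 36 to 58 reads a library. It summed to 1.85, 1.87 and 2.15 CPM in WT and 2.48, 2.76 and 2.29 in KO, higher in KO without overlap. Its 2 tested genes, Dntt (log2 fold change 0.57) and Vpreb1 (-0.52), did not pass. The plasma cell list summed to 210.6 to 212 CPM in WT and 188.9 to 231.4 in KO, mostly from Xbp1 and Prdm1, which T cells also express. Jchain, the chain that links IgM and IgA units, had 117, 41 and 68 reads in WT and 26, 76 and 28 in KO, where KO replicate 5 was the highest KO library. Of 9 plasma cell genes tested, Sdc1, a surface proteoglycan, passed as lower, at 7.41 ± 1.15 CPM in WT and 3.83 ± 0.656 in KO, and none as higher. The median log2 fold change of these 9 was 0.07, and only 3 were negative. Derl3, on the same list, had 2.37, 2.81 and 4.13 CPM in WT and 4.86, 4.52 and 5.49 in KO, without overlap. It did not pass (log2 fold change 0.68, edgeR adjusted p = 0.0907). The germinal centre list, at 97.0 to 116.8 CPM in WT and 109 to 117.3 in KO, had Fas as its 1 call, higher in KO, among 7 genes tested.

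Of the 164 members, 41 passed as lower in KO and 0 as higher, and 123 did not pass. The called share was 25%, against 2.14% of all 17643 genes tested for lower calls and 2.88% for higher calls. The members moved together between libraries, so their calls are not independent results. Of the 20 B cell markers, whose median log2 fold change was -1.95, none passed. The lower calls were 20 heavy and 21 kappa members and no lambda member. An unadjusted p under 0.05 was reached by 108 members, all lower in KO. A limma-voom fit called 19 members and DESeq2 called 53 as lower, and neither called any as higher. In 63 members every WT library lay above every KO library in CPM, 38.4% against 10.8% of all genes tested, and in none did every KO library lie above every WT library.

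The fitted log2 fold change was negative in 161 members, with a median of -1.96 over all 164, against 0.00468 over all genes tested. The medians were -1.97 for heavy, -1.95 for kappa and -1.81 for lambda members. The exceptions were Ighv1-5 at 0.82, Ighv1-58 at 0.20 and Igkv4-69 at 0.14, none of which passed. Because members enter by summed counts, a segment can enter through 1 group alone, so these counts describe the members and are not a test of the list. Of the WT libraries, replicate 2 had the lowest CPM in 149 members, and it lay above KO replicate 5 in 86 members and below it in 70.

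**Figure D3:**
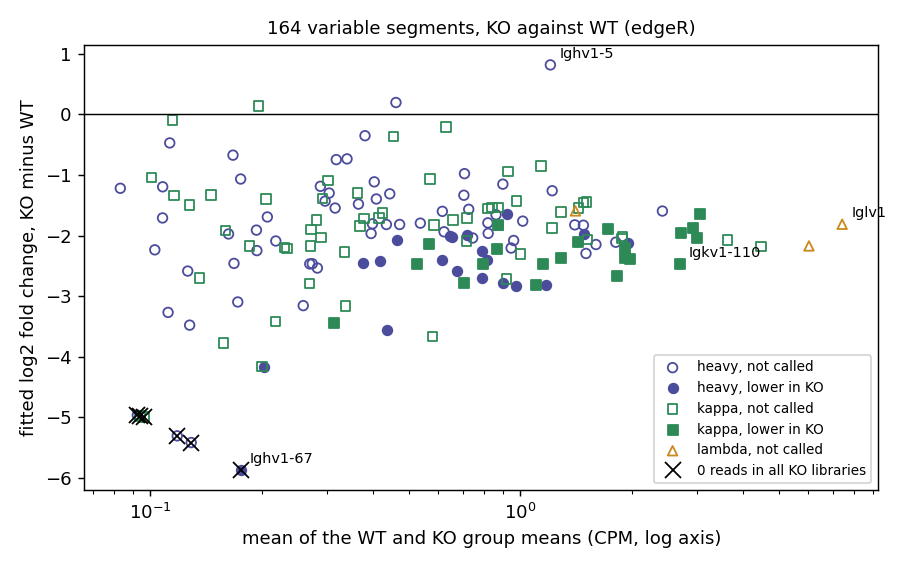
Fitted log2 fold change, KO minus WT (vertical axis), against the mean of the group means in CPM (horizontal log axis) for the 164 members, by class and call. Crosses mark the 6 members with no KO read, whose fitted value depends on the prior count, and 161 of 164 points lie below 0, with Ighv1-5 highest at 0.82.

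The number of calls rested on single libraries. It rose to 106 when WT replicate 2 was left out. It dropped to 11 if WT replicate 1 or WT replicate 3 was absent, and to 22, 20 and 9 if KO replicate 4, 5 or 6 was. In these refits 9 of the 41 called members passed each time. With the mean log2 level of the 19 B cell markers as a covariate (added after seeing the data), 1 member passed as lower. With those markers' reads as library size 0 passed as lower and 1 as higher, and the members' median log2 fold change was then -0.05. The summed markers did not overlap between the groups (lowest WT 735.1 CPM, highest KO 609.7). These fits therefore cannot tell marker level and genotype apart. In the covariate fit, fewer calls could follow from that alone. With marker reads as library size, the fold changes are per marker read, and their median was itself near 0.

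Among kappa members, Igkv1-110 had the smallest p. It had 128, 68 and 75 reads in WT and 17, 26 and 9 in KO, and even the lowest WT library was well above the highest KO library. The means were 4.58 ± 1.32 and 0.826 ± 0.405 CPM (SD, n = 3 each). The fold change was -2.47 on the log2 scale (SE 0.33), and the edgeR adjusted p was 0.000606. Igkv6-17 had 85, 48 and 63 reads in WT and 6, 23 and 11 in KO, or -2.38 on the log2 scale (SE 0.38, edgeR adjusted p = 0.00202). Igkv14-111 had 141, 52 and 92 reads in WT and 25, 30 and 19 in KO (log2 fold change -2.03, SE 0.32, edgeR adjusted p = 0.00250). None of these 3 segments showed WT replicate 2 as far below the other WT libraries as the kappa sum did.

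Igkv6-32, Igkv8-30 and Igkv4-55 completed the kappa segments of smallest p. Igkv6-32 had 70, 31 and 83 reads in WT and 14, 12 and 5 in KO, a log2 fold change of -2.67. Igkv8-30 fell from 1.95 ± 0.764 to 0.349 ± 0.167 CPM, and Igkv4-55, with 33, 20 and 26 reads in WT and 4, 8 and 3 in KO, had a log2 fold change of -2.47. Each of them passed in all 6 refits that left out 1 library, as did Igkv1-110, Igkv6-17 and Igkv14-111. Igkv10-96, the kappa segment with the most reads, had 219, 58 and 156 reads in WT and 31, 43 and 28 in KO, and did not pass (log2 fold change -2.18, SE 0.50, edgeR adjusted p = 0.0725). Igkv12-44 had 231 reads in WT replicate 1 but 25 in WT replicate 2, fewer than the 45 in KO replicate 5, and its adjusted p was 0.340 in the edgeR fit. Of the other kappa members among the 10 with the most reads, Igkv6-15, Igkv1-135, Igkv1-117, Igkv6-23 and Igkv17-127 passed, with log2 fold changes from -2.38 to -1.65.

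Among heavy members, Ighv1-18 and Ighv14-4 had the smallest p. Ighv1-18 had 57, 19 and 45 reads in WT and 6, 9 and 3 in KO, and fell from 2.06 ± 0.931 to 0.286 ± 0.143 CPM (log2 fold change -2.82, SE 0.48, edgeR adjusted p = 0.00283). Ighv14-4 was highest in WT replicate 2, with 31, 40 and 21 reads in WT and 7, 1 and 6 in KO (log2 fold change -2.79, SE 0.50, edgeR adjusted p = 0.00470). Both passed in all 6 refits. Ighv1-26, the heavy segment with the most reads, had 131, 29 and 58 in WT and 20, 37 and 19 in KO, and did not pass (log2 fold change -1.59, edgeR adjusted p = 0.165). Of the 10 heavy members with the most reads only Ighv1-82 and Ighv1-9 passed, with log2 fold changes of -2.11 and -1.97. Ighv1-64 spread widely, with 125, 6 and 47 reads in WT and 25, 17 and 1 in KO.

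The 3 lambda segments were all lower in KO and none passed. Iglv1 had 333, 125 and 224 reads in WT and 74, 92 and 41 in KO, and its groups did not overlap in CPM (11.5 ± 4.68 and 3.29 ± 1.23, log2 fold change -1.81, edgeR adjusted p = 0.0947). Iglv3 had 300, 66 and 217 reads in WT and 48, 62 and 28 in KO (log2 fold change -2.17, edgeR adjusted p = 0.194). Iglv2 had 54, 18 and 52 against 14, 23 and 7 reads, so that KO replicate 5 lay above WT replicate 2 (log2 fold change -1.59, edgeR adjusted p = 0.0776). Iglv1 and Iglv2, printed above as a pair, could share reads.

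No member was without reads in all WT libraries, while 6 were without reads in all KO libraries. Ighv1-67 had 13, 1 and 7 WT reads and was called. With 3 reads over the KO group as the floor, and the WT reads taken as exact, it was at least 7.53-fold lower in KO. Without WT replicate 1 it was at least 4.49-fold lower. Its call was kept in 1 of the 6 refits that left out 1 library, with adjusted p-values up to 0.177 in edgeR. The others were Ighv5-15, Ighv3-3, Ighv1-31, Igkv6-29 and Igkv9-123, with 11 to 15 WT reads, none of them called. With these 6 at their bounds, the median log2 fold change of all members stayed at -1.96. Just inside the threshold stood Ighv1-71 with 10 reads and Ighv1-31, Igkv6-29 and Igkv9-123 with 11. Just outside, with 9 reads, stood Ighv3-5, Ighv6-5, Igkv4-78 and Igkv5-37.

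Segment use was broad in every library. The effective number of segments is the exponential of the Shannon entropy of their shares, and equals the number of segments when all are used alike. For heavy chains it was 57.5, 49.7 and 61.5 in WT and 47.3, 43.7 and 49.4 in KO. Entropy grows with the reads sampled. It was therefore also averaged over random draws of 338 reads, the smallest heavy total, before the exponential was taken. On that footing the values were 51.4, 47.4 and 55.5 in WT and 46.6, 41.2 and 49.4 in KO, and the groups overlapped, with WT replicate 2 below KO replicate 6. The number of heavy members with a read was 82, 66 and 82 in WT and 65, 72 and 68 in KO. Drawn to 338 reads it was 71.3, 62.4 and 72.3 in WT against 63.6, 65.9 and 68 in KO.

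For kappa chains the effective number was 51.2, 44.1 and 53.4 in WT and 47.1, 50.1 and 47.5 in KO. Drawn to 480 reads it was 47.5, 42.3 and 49.8 in WT and 46.5, 48.2 and 47.5 in KO. The lowest kappa value belonged to a WT library, and the KO values lay within the WT range. For the 3 lambda segments the effective number ran from 2.42 to 2.60 in WT and from 2.51 to 2.65 in KO.

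**Figure D4:**
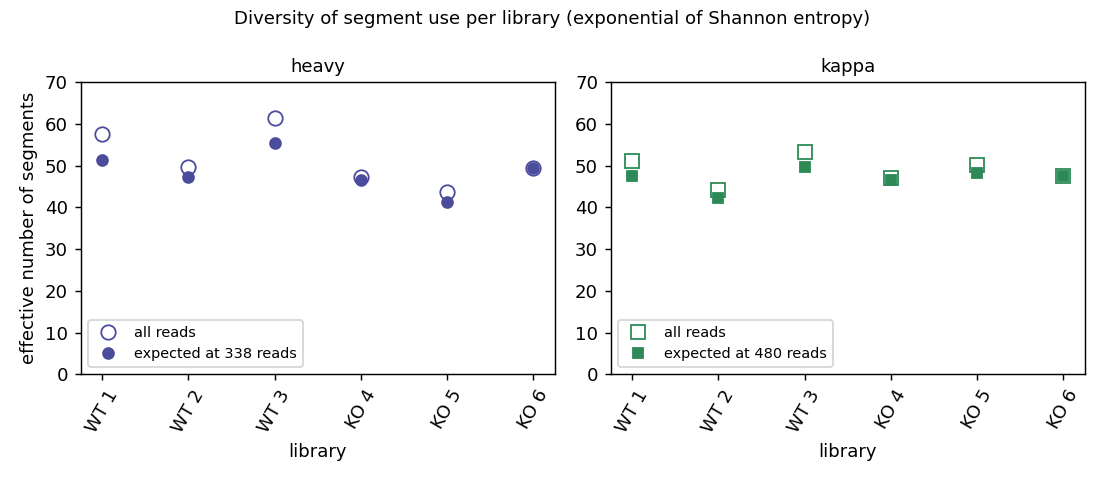
Effective number of heavy (left) and kappa (right) segments in each library, from all reads (open) and for draws of 338 heavy or 480 kappa reads (filled). At equal reads WT and KO overlap in both classes, and KO replicate 5 has the lowest heavy value, 41.2.

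The leading heavy and kappa segments were not the same in every library, while the leading lambda segment was. Among heavy chains the leader was Ighv1-26 in WT replicate 1 (5.40%) and KO replicate 6 (5.62%), Ighv14-4 in WT replicate 2 (6.64%) and Ighv1-64 in KO replicate 4 (6.44%). In WT replicate 3 Ighv1-26 and Ighv1-81 tied at 3.91%. Among kappa chains it was Igkv12-44 in WT replicate 1 (6.36%) and KO replicate 5 (5.22%), and Igkv1-110 in WT replicate 2 (7.10%). Igkv10-96 led in WT replicate 3 (6.49%) and KO replicate 4 (5.35%), and Igkv6-15 in KO replicate 6 (7.29%). Exact binomial 95% intervals on these shares were wide, such as 3.42% to 8.64% for Ighv1-26 in KO replicate 6. Iglv1 led the lambda chains in all 6 libraries, with 48.5%, 59.8% and 45.4% in WT and 54.4%, 52.0% and 53.9% in KO.

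KO replicate 5 had 1 heavy segment far above the rest. Ighv1-5 (ENSMUSG00000096499, chromosome 12, 114513330 to 114513807) held 89 of its 631 heavy reads, 14.1% with an exact binomial 95% interval from 11.5% to 17.1%. The other libraries had 24, 3 and 24 reads in WT and 3 and 5 in KO, and the next highest share was 1.62%, in WT replicate 3. This is a factor of 8.73, the largest of any member in any library with at least 20 reads, a limit chosen after seeing the data. Without Ighv1-5, KO replicate 5 had an inverse Simpson index of 41.6, where the other libraries, treated alike, had 40.7 to 51.8. With it the index was 26.7. This index is the inverse of the chance that a pair of reads drawn at random comes from the same segment. The last 300 bases of the segment are shown, with the cysteine codon in capitals.
Ighv1-5: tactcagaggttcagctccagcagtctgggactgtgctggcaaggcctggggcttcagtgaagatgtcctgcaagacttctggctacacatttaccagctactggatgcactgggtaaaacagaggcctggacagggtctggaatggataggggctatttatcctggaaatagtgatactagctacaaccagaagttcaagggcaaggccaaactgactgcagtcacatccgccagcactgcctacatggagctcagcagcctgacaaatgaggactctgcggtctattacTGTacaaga
The group difference in heavy leading share, 5.32% ± 1.37 in WT and 8.72% ± 4.68 in KO, rested on this library, and Ighv1-5 itself went from a log2 fold change of 0.82 to -2.16 without KO replicate 5.

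The shares of Ighv1-58 and Ighv1-53 among heavy reads also peaked in KO replicate 5. Each had 27 reads there, 4.28% of heavy reads, where the highest share elsewhere was 0.808% for Ighv1-58 and 1.89% for Ighv1-53. In reads, Ighv1-53 was higher in WT replicates 1 and 3, with 36 and 28, and so it was in CPM. Among kappa members, Igkv4-59 had 27 reads in the same library (3.13%, next highest 1.38%). The bases that differ between Ighv1-5 and Ighv1-58 over the last 120, compared position by position, are in capitals.
Ighv1-5: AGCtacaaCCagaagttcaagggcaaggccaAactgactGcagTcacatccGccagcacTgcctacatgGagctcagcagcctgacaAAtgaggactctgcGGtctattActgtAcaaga
Ighv1-58: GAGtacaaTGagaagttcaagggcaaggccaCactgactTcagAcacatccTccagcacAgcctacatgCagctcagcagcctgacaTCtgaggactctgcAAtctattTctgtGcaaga
The pair differed at 17 of these bases. Over the last 250 bases, in an alignment that allows gaps, it was 85.2% identical, and Ighv1-5 and Ighv1-53 were 86.4% identical. The annotated segment nearest to Ighv1-5 was Ighv1-12, at 88%. The same library held the 231 Ighg2c reads and the 76 Jchain reads given above, and which variable segment was joined to Ighg2c was not tested, since counts per gene do not link them.

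**Figure D5:**
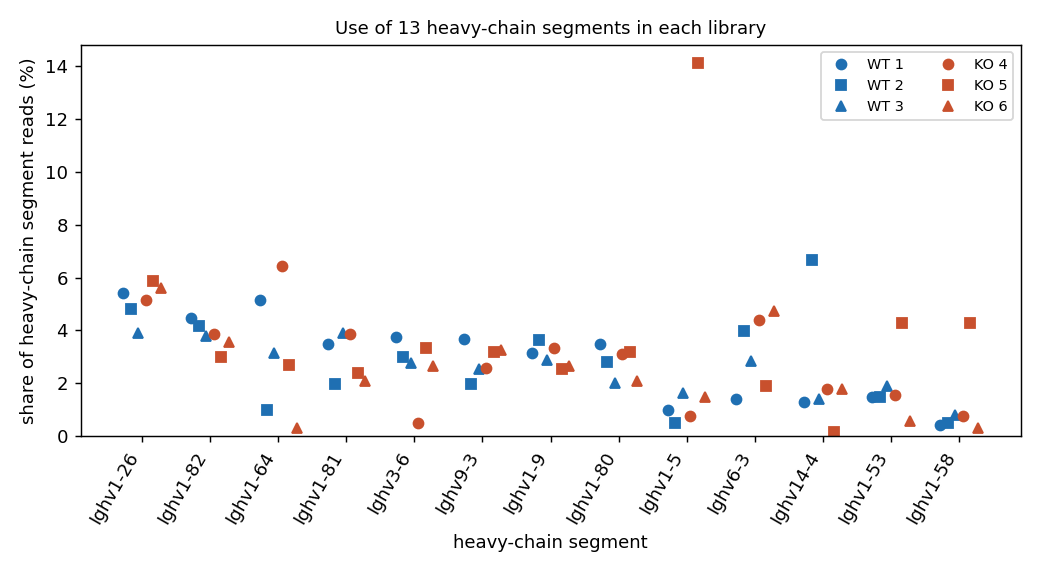
Share of heavy segment reads (vertical axis, percent, from 0) of the 10 heavy members with the most reads and of Ighv14-4, Ighv1-53 and Ighv1-58 in each library (WT in blue, KO in orange, one marker shape per replicate). Ighv1-5 in KO replicate 5 stands at 14.1%, and no other point is above 6.64%.

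WT replicate 2 had its own stand-outs of smaller size. Ighv14-4 took 6.64% of heavy reads there and at most 1.80% elsewhere, and Igkv1-110 took 7.10% of kappa reads against at most 3.53%. Igkv6-17 took 5.01% against at most 2.67%. These 3 segments are among the 8 with the smallest p for lower levels in KO, and in this library their shares were well above those in the other WT libraries. In KO replicate 4, Igkv5-48 took 4.84% of kappa reads and at most 2.401% elsewhere.

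The mix of heavy and of kappa segments varied between libraries by more than counting error, within groups as well as between them. Chi-square divided by its degrees of freedom, near 1 for counting error alone, was 2.05 to 4.09 for heavy pairs within WT, 3.51 to 4.51 within KO and 2.23 to 6.26 between the groups. The 5 heavy pairs with KO replicate 5 gave 3.77 to 6.26 and the 10 pairs without it 2.05 to 4.09. For kappa the values were 2.67 to 4.04 within WT, 1.80 to 2.73 within KO and 1.76 to 3.95 between the groups. For the 3 lambda segments they were 1.44 to 6.14 within WT, 0.0462 to 0.365 within KO and 0.410 to 3.51 between the groups, so several lambda pairs agreed within counting error. For a given difference in mix this ratio grows with the reads compared, and KO libraries mostly had fewer reads. Its ranges therefore do not show in which group the libraries were more alike.

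By family, Ighv1, by far the largest with 42 members, took 57.6% ± 5.06 of heavy reads in WT and 61.8% ± 7.15 in KO, and 12 of its members were called. Ighv5, whose 9 members include the one nearest the joining segments, took 8.36% ± 0.709 and 7.78% ± 3.13, with 3 called. Ighv14 took 6.56% ± 2.93 in WT and 4.17% ± 1.16 in KO, where 9.80% in WT replicate 2 came largely from Ighv14-4. Among kappa families, Igkv6 took 16.9% ± 3.56 and 14.0% ± 2.53 with 5 of 9 members called. Igkv4, with 21 members, took 12.3% ± 1.81 and 13.4% ± 3.19 with 4 called, and Igkv1 took 13.5% ± 2.30 and 11.8% ± 0.691. Igkv3 took 5.45%, 5.01% and 6.24% in WT and 5.87%, 8.24% and 7.08% in KO, so that both groups overlapped. Some smaller families did not overlap, in either direction. Igkv14, with 4 members, took 6.03%, 6.26% and 6.28% in WT and 5.35%, 4.76% and 5.21% in KO. Igkv2, with 2 members, took 1.51%, 1.36% and 1.83% in WT and 4.84%, 1.97% and 2.92% in KO. Family shares were not tested.

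Position in the locus is known to bear on how often a segment recombines. The heavy members were put in order of their distance from the joining segments. The nearest 28 (149 to 858 kb away) took 30.3% ± 2.30 of heavy reads in WT and 26.5% ± 6.89 in KO, the middle 27 took 34.0% ± 2.45 and 37.4% ± 7.64, and the farthest 27 took 35.7% ± 2.54 and 36.1% ± 2.32. For kappa, the middle 26 members took less than the ends, with 18.7% ± 2.96 in WT and 20.6% ± 1.82 in KO, against 40.4% ± 0.559 and 40.9% ± 5.36 for the nearest 27. Kappa members on the plus strand, the strand of the kappa joining segments, took 43.7% ± 2.72 of kappa reads in WT and 42.7% ± 1.67 in KO. In each of these divisions the groups differed by less than the SD of the KO libraries.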

How the data were processed

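Raw counts of reads per Ensembl gene, as the authors deposited them, were used for all 6 libraries. Their tables of normalized counts and FPKM name many variable segments by clone and were not used. The submitters' processing notes name bcl2fastq, STAR 2.4.2a, DESeq2 and the build GRCm38. The counter, its handling of strand and of reads shared by near-identical segments, and its annotation were not given in the sources used here. Symbols, positions and transcripts came from GENCODE M21, and 1775 of 37187 gene IDs had no match.

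All genes with a summed count of at least 10 were tested, WT against KO, with edgeR 4.0.16 in R 4.3.3 (TMM factors, robust quasi-likelihood fit, two-sided, Benjamini-Hochberg, threshold 0.05). CPM values use the TMM factors, and standard errors were derived from the F statistic. The fit was tested on simulated data in which each gene was drawn independently, so that test does not cover genes that move together, as the members did. Alternatives were RLE and upper-quartile factors, filterByExpr, no filter, a summed count of at least 100, limma-voom (limma 3.58.1), DESeq2 1.42.0, thresholds of 0.01 and 0.10, leaving out each library, and B cell marker reads as covariate or library size. Versions of the last without Cd72, and the limit of 20 reads for a stand-out segment, were added after seeing the data.

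Intervals are exact Clopper-Pearson binomial, and like the floor of 3 counts cover counting error only, since reads without molecular identifiers are not independent molecules. Members and lists were chosen with earlier results of these data known. Named were the 10 heavy and 10 kappa members with the most reads, the lambda members, the leader of each class in each library, the 8 calls with the smallest p, members at the threshold, members that stood out in 1 library, and the largest genes of the related lists. A planned limit of 200 reads for stand-outs left only Igkv12-44 and Iglv3, by factors of 1.22 and 1.01. Genes named outside the rule (Igkv4-69, the segments without KO reads and single list genes) were chosen after their values were seen. Some genes of the lists are not reported here.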

Additional observations from a re-analysis of the deposited data

How the results depend on the processing

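The 41 lower calls became 91 with no filter on low counts, 23 of 57 members tested at a summed count of at least 100, 19 in limma-voom and 11 at a threshold of 0.01. Over the fits that left out 1 library they ranged from 9 to 106. They were 40 with RLE and 41 with upper-quartile factors, 33 of 75 members tested with filterByExpr, 53 in DESeq2 and 58 at a threshold of 0.10. All 41 passed without WT replicate 2, and 9 to 21 of them passed without any 1 of the other libraries. No member passed as higher in these fits. The causes of these changes were not tested, apart from the fewer members or libraries that some settings keep.

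The B cell marker settings changed the most. As the marker sums did not overlap between the groups, these settings cannot tell marker level and genotype apart. With the score of 20 markers as a covariate or their reads as library size 1 member was lower, and 0 and 6 were higher. Without Cd72, chosen after seeing the data, 1 and 0 were lower and 0 and 1 higher. Per marker read, the log2 ratios of the class totals became 0.17 for heavy, 0.0344 for kappa and 0.0157 for lambda, and without Cd72 0.0441, -0.10 and -0.13. Several log2 fold changes turned positive under these settings. With the score they were 0.76 for Ighv1-26, 0.12 for Ighv1-82, 0.0589 for Igkv1-135, 0.0223 for Igkv1-117, 0.20 for Igkv17-127, 0.37 for Iglv3, 0.52 for Iglv2, 0.15 for Ighm and 0.19 for Igkc. With marker reads as library size they were 0.40 for Ighv1-26, 0.000327 for Ighv1-9, 0.34 for Igkv6-15, 0.11 for Igkv1-135, 0.11 for Iglv1, 0.31 for Iglv2, 0.89 for Ighj3, 0.0372 for Igkj4, 1.59 for Ighm and 0.16 for Igkc. With the score without Cd72 they were 0.48 for Ighv1-26, 0.0867 for Iglv3, 0.27 for Iglv2 and 0.0916 for Ighm. With the reads without Cd72 they were 0.28 for Ighv1-26, 0.19 for Igkv6-15, 0.17 for Iglv2, 0.61 for Ighj3, 1.32 for Ighm and 0.0278 for Igkc.

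Ighv1-5 turned from 0.82 to -0.21 in limma-voom and to -2.16 without KO replicate 5, and ranged up to 1.355 over the fits that left out 1 library. The KO minus WT difference in the mean heavy effective number went from -9.44 to -2.195 with only members of at least 100 reads. That in the lambda leading share went from 2.21 to -4.54 percentage points once each library's leader was left out. No paired analysis was possible because the WT and KO libraries share no replicate numbers. With 338 to 2425 heavy reads a library, shares of single segments carry wide counting intervals.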
